A study of Saccharomyces cerevisiae with 16 samples.

Results

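The 4 arrays described here hold Σ1278b cells titled *FLO8* overexpressed (2 arrays) and Σ1278b cells titled *flo8* deleted (2 arrays). They were chosen by their titles and source names, and are 4 of the 16 Affymetrix Yeast Genome 2.0 arrays of a study on how Flo8 and Mss11 shape the transcriptome of yeast strains that differ in adhesion. All 4 are MATα cells with the genotype ura3-52, trp1Δ::hisG, leu2Δ::hisG and his3Δ::hisG. By source name, the first 2 were wild type carrying *FLO8* on a multicopy vector and the other 2 carried a *flo8* deletion and an empty vector. The strain list of the study gives its *flo8* strain as *flo8*Δ::*LEU2*. The plasmid labels say the reverse of the titles, with YEpLac195 for *FLO8* overexpressed and YEpLac195-*FLO8* for *flo8* deleted. A further 2 arrays, wild type b, hold the same strain with YEpLac195, and are used here as the wild type beside these 4. The labels do not say which arrays were processed together. Cultures grew in synthetic medium with 2% glucose at 30 °C, to entry into stationary phase by the labels and to mid-exponential phase by the methods. Each group has 2 arrays that the labels call biological replicates.

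Flo8 is a transcription factor that acts below the cAMP and protein kinase A pathway. Together with Mss11 it binds and activates the promoter of *FLO11*, which encodes the cell wall adhesin needed for invasive growth, mat formation and pseudohyphae. Other flocculin genes encode the adhesins that hold cells together in flocs. Σ1278b carries a functional *FLO8*, which S288c lacks, and is therefore the strain in which filamentous growth is usually studied.

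The *FLO8* probe set checked the titles only in part. Its log2 intensity was 15.71 and 12.90 on the *FLO8* overexpressed arrays, against 11.06 and 11.16 on the arrays labelled *flo8* deleted, and 11.59 and 11.63 in wild type b. The overexpressed arrays did not overlap with the others, but lay 2.81 apart from each other, and the log2 difference of 3.19 (standard error 0.96) did not pass the test (adjusted p = 0.107). Without replicate 1 of *FLO8* overexpressed it was 1.78 and without replicate 2 it was 4.60. Each of these fits leaves 1 overexpressed array, so that the gap between the replicates no longer counts in the spread. The arrays labelled *flo8* deleted were not at background, taken here as a log2 intensity under 3, since 99.9% of the probe sets for another organism lay under it. They were also not below the 10 arrays of the other conditions, which ranged from 9.21 to 10.45, though whether those were normalized together with these is not stated. Where the *FLO8* probes lie relative to the deleted part is not known, so this probe set cannot show whether the gene was deleted. These arrays are therefore called labelled *flo8* here.

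The plasmid marker *URA3* set the overexpressed replicates apart in the same order as *FLO8*. Its log2 intensity was 15.999 and 13.67 in *FLO8* overexpressed, against 15.81 and 15.80 in labelled *flo8*, and 15.89 and 15.78 in wild type b. Replicate 2 of *FLO8* overexpressed was thus the lowest of the 6 arrays for *URA3*. The leucine marker *LEU2* was 14.32 and 14.47 in *FLO8* overexpressed, against 13.90 and 13.92 in labelled *flo8*, and 14.42 and 14.58 in wild type b. *LEU2* was thus expressed in all 3 groups although their genotype labels read leu2Δ::hisG. Markers of mating type were checked against the MATα label. Of 7 genes specific to **a** cells, 5 lay at background in every group, *MFA1* among them, and the array medians of 5 α-specific genes ranged from 13.65 to 13.77 in *FLO8* overexpressed, 13.66 to 13.87 in labelled *flo8* and 13.82 to 13.84 in wild type b. None of these 12 genes passed the test.

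**Figure D1:**
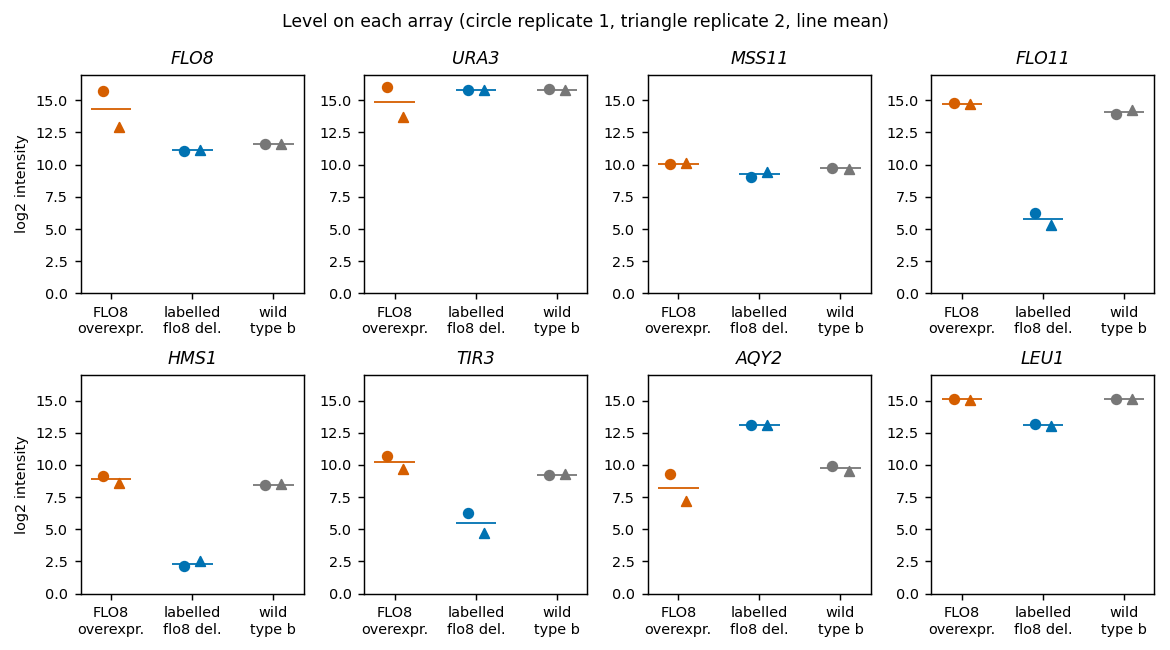
Log2 intensity (vertical axis) of 8 genes on each array of *FLO8* overexpressed, labelled *flo8* and wild type b; circles are replicate 1, triangles replicate 2 and lines the mean of 2 arrays. *FLO8* and *URA3* are lower in replicate 2 than in replicate 1 of *FLO8* overexpressed, while *FLO11* is 14.79 and 14.67 there, against 6.25 and 5.34 in labelled *flo8*.

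One array stood apart over a whole chromosome. On labelled *flo8* replicate 2, the 78 probe sets of chromosome I with a mean log2 intensity of at least 5 lay a median of 1.01 above wild type b, a linear ratio of 2.02, and 67 of them lay more than 0.5 above. On the other 15 chromosomes the medians of this array ranged from -0.048 to 0.004. On the other 3 arrays, the medians of the 16 chromosomes ranged from -0.034 to 0.026. Of the 83 probe sets that differed by more than 1 between the labelled *flo8* replicates, 45 were of chromosome I. No DNA was measured, and the part of this array in the differences was not tested beyond leaving it out. These 78 probe sets had a median log2 difference of -0.52 between *FLO8* overexpressed and labelled *flo8*, and 2 of all 91 tested on chromosome I were called. These were *YAL037W* and *YAR068W*, at -1.88 and -1.28 (adjusted p = 0.0474 and 0.0245). *YAL037W* was 7.18 and 7.16 in *FLO8* overexpressed and 8.53 and 9.57 in labelled *flo8*, with its highest value on the array where the chromosome was shifted.

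**Figure D2:**
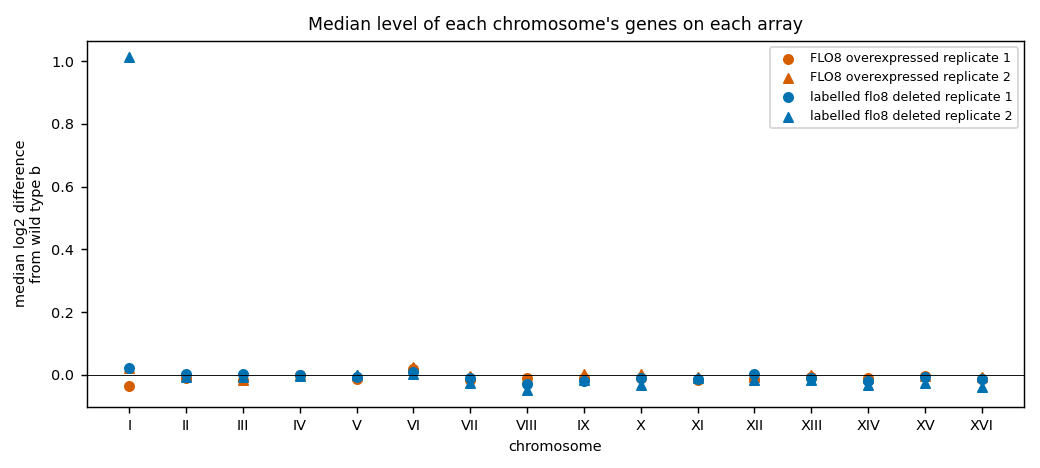
Median log2 difference from wild type b (vertical axis) over the probe sets of each chromosome (horizontal axis), one point per array. Chromosome I on labelled *flo8* replicate 2 lies at 1.01, and every other point lies between -0.048 and 0.026.

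Between *FLO8* overexpressed and labelled *flo8*, 582 of 5498 probe sets (10.6%) were called changed, 321 higher (5.84%) and 261 lower (4.75%) in *FLO8* overexpressed. A probe set is called where limma gave a Benjamini-Hochberg adjusted p under 0.05, from a fit on these 4 arrays and wild type b, and every adjusted p given for this comparison comes from that fit. Most differences were small. The median absolute log2 difference was 0.38 among the higher and 0.42 among the lower probe sets, and 58 and 51 of them, in that order, differed at least 2-fold. The median over all probe sets was 0.00486. Without chromosome I, an alternative chosen after seeing the data, 609 were called. The count depended on single arrays: it was 61 and 161 without *FLO8* overexpressed replicate 1 and 2, 908 and 155 without labelled *flo8* replicate 1 and 2, and 99 without either wild type b array, the group with 1 array then being assumed to vary like the others. Whichever of the 6 arrays was left out, 39 probe sets remained called, 26 higher and 13 lower. Leaving out a wild type b array changed no difference between *FLO8* overexpressed and labelled *flo8*, only the estimate of the spread. The count was then that of the 4 arrays alone. With 2 arrays per group, the arrays of both groups did not overlap for 61.1% of all probe sets, so that a lack of overlap alone says little.

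*FLO11*, the adhesin gene, had the largest difference of all genes that were called. It was 14.79 and 14.67 in *FLO8* overexpressed, against 6.25 and 5.34 in labelled *flo8*. The difference of 8.94 (standard error 0.33, adjusted p = 0.0031) is a 490-fold ratio on the linear scale. Both overexpressed arrays lay far above both labelled *flo8* arrays, and they differed from each other by 0.12 although their *FLO8* levels differed by 2.81. Wild type b, at 13.93 and 14.24, lay near *FLO8* overexpressed (log2 difference 0.65, adjusted p = 0.435), and labelled *flo8* lay 8.29 below wild type b (adjusted p = 0.00386). The call of *FLO11* stayed with every array left out (highest adjusted p = 0.0339).

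The other 3 flocculin genes measured were not called. *FLO10* was 7.78 and 7.90 in *FLO8* overexpressed and 8.20 and 8.66 in labelled *flo8*, a log2 difference of -0.59 (adjusted p = 0.0982). It was 7.85 and 7.74 in wild type b. *FLO9*, on chromosome I and with a probe set that similar transcripts share, was 8.74 and 8.73 against 8.89 and 9.15 (log2 difference -0.29, adjusted p = 0.127). *FLO1*, also on chromosome I, lay at background on all 6 arrays, between 2.07 and 2.12. Without labelled *flo8* replicate 1 the log2 difference was -0.82 for *FLO10* and -0.42 for *FLO9*, and without replicate 2 it was -0.36 and -0.16. Replicate 2 is the array on which chromosome I lay above wild type b, but *FLO10* lies on chromosome XI. *FLO5* was not matched to a probe set of its own. The paper lists *FLO1*, *FLO5* and *FLO9* with one shared value, and states that the probe sets do not separate their signals efficiently.

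Of the 11 members of the Srp1/Tip1 family, small mannoproteins of the cell wall, 2 were higher, against 5.84% of all probe sets. *TIR3* was 10.69 and 9.71 in *FLO8* overexpressed, against 6.30 and 4.71 in labelled *flo8*, and 9.19 and 9.26 in wild type b. The log2 difference was 4.69 (standard error 0.64, adjusted p = 0.029, up to 0.125 with 1 array left out). *TIP1* was 14.33 and 14.08 against 13.27 and 13.40, a log2 difference of 0.87 (adjusted p = 0.0242, up to 0.0769). The other 9 members were not called, among them *TIR1* (0.08), *TIR2* (0.27) and *TIR4* (0.64), and *DAN1* lay at background.

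Among the gene lists other than the branched-chain set described further on, which was chosen on its values, regulators of filamentous growth held the largest share of higher genes. Of 28 measured, 10 were higher and 1 was lower, against 5.84% and 4.75% of all probe sets, with a median log2 difference of 0.23. All lists and their members were chosen with earlier results of these data known, so that this rank describes the choice as well as the genes. The largest was *HMS1*, a helix-loop-helix factor whose overexpression gives hyperfilamentous growth. It was 9.17 and 8.64 in *FLO8* overexpressed, against 2.14 and 2.53 in labelled *flo8*, and 8.45 and 8.48 in wild type b. As the labelled *flo8* arrays lie at background, the difference of 6.57 (standard error 0.23, adjusted p = 0.00263) is a lower limit. It stayed called with every array left out (highest adjusted p = 0.0293).

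The related basic leucine zipper factors *CIN5* and *YAP6* were higher, while *SKO1* (-0.15) and *GCN4* (-0.07) of the same list were not called. *CIN5* was 10.12 and 10.29 in *FLO8* overexpressed and 7.84 and 8.09 in labelled *flo8* (log2 difference 2.24, standard error 0.12, adjusted p = 0.00596, up to 0.043 with 1 array left out). *YAP6* was 10.57 and 10.36 against 8.59 and 8.22 (2.06, standard error 0.15, adjusted p = 0.00937, up to 0.0676). In both genes the groups were well apart, and wild type b, at 9.49 and 9.69 for *CIN5* and 9.97 and 10.12 for *YAP6*, lay nearer to *FLO8* overexpressed. *HMS2*, which resembles heat shock factors, was 8.75 and 8.43 against 7.67 and 7.60 (0.96, adjusted p = 0.0258, up to 0.0886).

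*MSS11*, the partner of Flo8 at *FLO11*, was 10.02 and 10.12 in *FLO8* overexpressed, against 9.08 and 9.41 in labelled *flo8*, and 9.74 and 9.70 in wild type b. The difference of 0.83 (standard error 0.12) was called (adjusted p = 0.0317, up to 0.128 with 1 array left out), and wild type b lay between the groups. *PHD1*, *SUT1*, *CMR3*, *TEC1* and *STE12* made up the other higher genes, with log2 differences from 0.25 to 0.93. Of these only *TEC1*, which with Ste12 binds filamentation promoters, stayed called with every array left out (log2 difference 0.57, highest adjusted p = 0.038). The lower gene was *HOG1*, the kinase of the osmolarity pathway, at -0.27 (adjusted p = 0.0435). The repressor genes *SFL1* (0.11) and *NRG1* (0.83) were not called. With 1 array left out, 3 to 9 regulators were higher, and 6 without labelled *flo8* replicate 2.

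Upstream pathways showed smaller differences. Of 19 genes of the filamentation MAPK pathway and its targets, 5 were higher and 1 lower, with a median of 0.03, against 5.84% higher and 4.75% lower of all probe sets. They included *TEC1* and *STE12*, the cell surface sensor gene *MSB2* (0.35, adjusted p = 0.0387) and the wall protein gene *SVS1* (0.48, adjusted p = 0.00672), while the kinase genes *STE20*, *STE11*, *STE7* and *KSS1* had log2 differences from -0.05 to 0.23 and were not called. Of 14 genes of the cAMP and protein kinase A pathway, none was higher and 2 were lower, against the same shares. These were *CDC25*, the exchange factor of Ras, at -0.41 (adjusted p = 0.0246) and *GPA2*, the Gα subunit that couples to the glucose receptor, at -0.35 (adjusted p = 0.0414). *TPK2*, the kinase subunit that acts on Flo8, was 12.08 and 12.12 against 12.32 and 12.49 (-0.31, adjusted p = 0.0601).

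**Figure D3:**
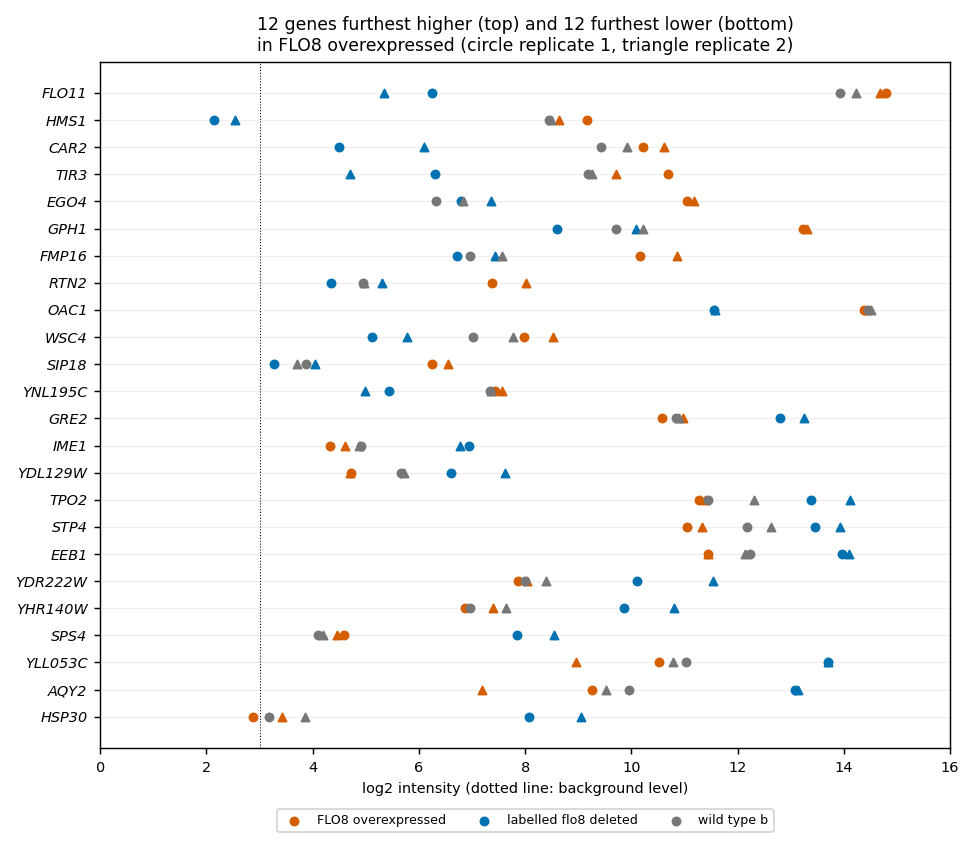
Log2 intensity (horizontal axis) on each of the 6 arrays for the 12 genes furthest higher and the 12 furthest lower in *FLO8* overexpressed. These were taken among called genes without overlap between the groups whose higher group had a mean of at least 6. Circles are replicate 1, triangles replicate 2, and the dotted line is the background level of 3. Wild type b lies near *FLO8* overexpressed for *FLO11*, *HMS1* and *OAC1*, and near labelled *flo8* for *EGO4*, *FMP16* and *RTN2*.

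Called genes were ranked where the arrays did not overlap and the higher group had a mean log2 level of at least 6. *PHO84* (2.32) and *ECM34* (2.31), though called, lay under that level. The 12 ranked genes with the largest positive differences fell on either side of wild type b. For *FLO11*, *HMS1*, *TIR3* and 4 further genes, wild type b lay nearer to *FLO8* overexpressed. *CAR2*, the ornithine aminotransferase of arginine breakdown, was 10.21 and 10.62 in *FLO8* overexpressed, against 4.49 and 6.09 in labelled *flo8*, and 9.43 and 9.91 in wild type b (log2 difference 5.13, standard error 0.58, adjusted p = 0.0232). Its labelled *flo8* replicates lay 1.60 apart, and remained below all other arrays. *OAC1*, a mitochondrial carrier of oxaloacetate, was 14.38 and 14.43 against 11.55 and 11.57, with 14.45 and 14.51 in wild type b (2.85, standard error 0.03, adjusted p = 0.000222). *WSC4*, of a family of wall stress sensors, was 7.97 and 8.53 against 5.12 and 5.78 (2.80, adjusted p = 0.0297). *YNL195C*, of unknown function, was 7.43 and 7.56 against 5.43 and 4.98 (2.29, adjusted p = 0.009).

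For the other 5 genes, wild type b lay with labelled *flo8*. *EGO4* was 11.05 and 11.19 in *FLO8* overexpressed, against 6.80 and 7.36 in labelled *flo8*, and 6.33 and 6.84 in wild type b (4.04, standard error 0.26, adjusted p = 0.0073). The glycogen phosphorylase gene *GPH1* was 13.24 and 13.31 against 8.60 and 10.09, with 9.72 and 10.22 in wild type b (3.94, standard error 0.53, adjusted p = 0.029). In both genes the overexpressed arrays stood above all the others. *FMP16* of the mitochondrion (3.44, adjusted p = 0.0239), the reticulon gene *RTN2* (2.86, adjusted p = 0.0294) and *SIP18* (2.74, adjusted p = 0.0198), whose protein protects cells on drying, had the same order of groups. Against wild type b itself, none of the 5 was called in *FLO8* overexpressed, *EGO4* having adjusted p = 0.0555. *SPG4* (3.05, adjusted p = 0.00633), a stationary phase gene, would join them, but its level in *FLO8* overexpressed, 5.56, was under the minimum of 6 set for naming, and it was chosen after its values were seen.

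The 12 genes furthest lower in *FLO8* overexpressed were ranked by the same rule, and *YHR210C* (-2.41) was called but under the minimum level. For all 12, wild type b lay nearer to *FLO8* overexpressed than to labelled *flo8*. *HSP30*, a stress-induced protein of the plasma membrane, was 2.87 and 3.43 in *FLO8* overexpressed, against 8.07 and 9.05 in labelled *flo8*, and 3.18 and 3.86 in wild type b (log2 difference -5.41, standard error 0.45, adjusted p = 0.0113). One of its overexpressed arrays lay at background. *AQY2*, which encodes a water channel, was 9.27 and 7.19 against 13.09 and 13.14, with 9.96 and 9.53 in wild type b (-4.89, standard error 0.72, adjusted p = 0.0322). Its lowest value fell on the overexpressed replicate that was also the lower one for *FLO8* and *URA3*. *YLL053C*, the reading frame beside *AQY2* and continuous with it in Σ1278b, was 10.53 and 8.95 against 13.70 and 13.70 (-3.96, adjusted p = 0.029), so that the probe sets are not independent of each other.

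*IME1* and *SPS4*, of a list of meiotic entry genes, were among the lower ones. *IME1*, the inducer of meiosis, was 4.32 and 4.60 in *FLO8* overexpressed, against 6.94 and 6.77 in labelled *flo8*, and 4.91 and 4.88 in wild type b (-2.39, standard error 0.12, adjusted p = 0.00443, up to 0.0328 with 1 array left out). *SPS4*, a gene of mid sporulation, was 4.59 and 4.46 against 7.84 and 8.55 (-3.67, standard error 0.25, adjusted p = 0.00811, up to 0.0646). Both were apart from all other arrays in labelled *flo8*. Of 15 genes of the list these were the only 2 called, against 4.75% lower of all probe sets, and *IME2*, the kinase that acts below Ime1, was 6.22 and 6.35 against 6.28 and 6.30.

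The remaining genes of this group had a range of roles. *EEB1*, which makes ethyl esters of fatty acids, was 11.45 and 11.45 in *FLO8* overexpressed, against 13.97 and 14.10 in labelled *flo8*, and 12.23 and 12.14 in wild type b (-2.59, standard error 0.06, adjusted p = 0.00084). *GRE2*, a methylglyoxal reductase, was 10.57 and 10.96 against 12.80 and 13.25 (-2.26, adjusted p = 0.0146). The zinc finger gene *STP4* (-2.51, adjusted p = 0.0173), the polyamine exporter gene *TPO2* (-2.42, adjusted p = 0.0376, and -1.29 on a further probe set that other transcripts may share) and the little known *YHR140W* (-3.19, adjusted p = 0.029), *YDR222W* (-2.86, adjusted p = 0.0432) and *YDL129W* (-2.40, adjusted p = 0.0309) completed the 12. *POX1*, the acyl-CoA oxidase of peroxisomes, had a log2 difference of -4.67 and narrowly missed the threshold (adjusted p = 0.0503).

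Of these 24 genes, *FLO11*, *HMS1*, *OAC1*, *EEB1* and *IME1* stayed called whichever array was left out. Without *FLO8* overexpressed replicate 1 and 2, 7 and 11 of the 24 were called, with adjusted p up to 0.18 and 0.13. Without labelled *flo8* replicate 1 and 2, 22 and 16 were called, with adjusted p up to 0.0562 and 0.106. Without either wild type b array, 10 were called (adjusted p up to 0.11). *TIR3*, *FMP16*, *WSC4*, *AQY2*, *YLL053C*, *YHR140W*, *STP4* and *TPO2* were not called without the labelled *flo8* replicate with the chromosome I shift. Each of them also lost its call when some other array was left out, so that the shifted array was not alone in this. Without the shifted array their log2 differences were 3.90, 3.80, 3.14, -4.86, -3.97, -2.72, -2.28 and -2.06. None of the 24 lies on chromosome I.

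A set of branched-chain amino acid genes was followed after their values had been seen, so that its counts describe the choice as well as the genes. Leucine, isoleucine and valine are made from pyruvate and threonine in mitochondria and cytosol, and the genes of the leucine branch are controlled by Leu3 and Gcn4. Of the 12 genes, which include *OAC1*, 9 were higher in *FLO8* overexpressed and 1 was lower, against 5.84% and 4.75% of all probe sets, and 8 stayed called with every array left out. *LEU1*, isopropylmalate isomerase, was 15.10 and 15.07 in *FLO8* overexpressed, against 13.15 and 13.03 in labelled *flo8*, and 15.09 and 15.10 in wild type b (2.00, standard error 0.05, adjusted p = 0.00084). *BAT1*, the mitochondrial branched-chain aminotransferase, was 15.17 and 15.18 against 13.78 and 13.73, with 15.18 and 15.14 in wild type b (1.42, adjusted p = 0.00084). In both, wild type b lay on top of *FLO8* overexpressed.

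The isopropylmalate synthase genes *LEU9* (0.76, adjusted p = 0.00203) and *LEU4* (0.58, adjusted p = 0.00898), with *ILV3* (0.51, adjusted p = 0.0063) and *ILV2* (0.47, adjusted p = 0.00548), followed the same order. *ILV5* was higher by 0.16 (adjusted p = 0.0418), and *ILV1* and *ILV6* were not called (0.03 and 0.05). *BAT2*, the cytosolic counterpart of *BAT1*, was 12.51 and 12.50 in *FLO8* overexpressed, against 13.33 and 13.25 in labelled *flo8*, and 12.53 and 12.52 in wild type b (-0.78, adjusted p = 0.00391). *LEU2* itself was higher by 0.48 (adjusted p = 0.0387, up to 0.114 with 1 array left out). The strain list gives *LEU2* as the marker of the *flo8* deletion, the *LEU2* level moved with these genes, and its part in their differences was not tested. Over the 48 genes of amino acid synthesis under Gcn4, 8 were higher and 2 lower, against 5.84% and 4.75% of all probe sets, with a median of 0.03, and *GCN4* itself was not called (-0.07).

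Called stress genes lay on both sides. Of 51 genes of the general stress response, 10 were higher and 3 lower in *FLO8* overexpressed, against 5.84% and 4.75% of all probe sets, with a median log2 difference of 0.20. Besides *GPH1*, the higher genes were led by *MSC1*, at 12.22 and 12.46 in *FLO8* overexpressed, against 10.08 and 10.65 in labelled *flo8*, and 10.03 and 10.29 in wild type b (1.97, adjusted p = 0.0239). *HSP12* was 12.85 and 13.66 against 10.13 and 12.03 and was not called (adjusted p = 0.137), and *CTT1* and *DDR2* likewise had labelled *flo8* replicates more than 1 apart. The chaperone gene *HSP82* was higher by 0.77 (adjusted p = 0.0241), and the regulator genes *MSN2* and *MSN4* were not called. The 3 lower genes were *HSP30*, *GRE2* and *DDR48*. Against wild type b the median of the list was 0.38 in *FLO8* overexpressed and 0.25 in labelled *flo8*, so that wild type b lay below both. With 1 array left out, 1 to 9 stress genes were higher and 0 to 4 lower.

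Of 11 genes measured from a list on daughter cell separation, 4 were lower in *FLO8* overexpressed, against 4.75% of all probe sets, and the other 7 were not called. The log2 differences of the list ranged from -1.18 to -0.15, with a median of -0.57, and the arrays of both groups overlapped for *CTS1* and *DSE1*. *PRY3* was 8.80 and 8.93 in *FLO8* overexpressed, against 9.80 and 10.28 in labelled *flo8* (-1.18, adjusted p = 0.0317, up to 0.149 with 1 array left out). *DSE4*, a glucanase secreted by daughter cells, was 11.27 and 11.33 against 12.12 and 12.26 (-0.89, adjusted p = 0.00898, up to 0.0666), and *DSE3* had -0.91 (adjusted p = 0.0346, up to 0.116). *SUN4*, a wall protein of septation, was 11.79 and 11.85 against 12.66 and 12.73, with 12.10 and 12.10 in wild type b (-0.87, standard error 0.04, adjusted p = 0.00387, up to 0.0357). *CTS1*, the chitinase that digests the septum, was 11.66 and 11.63 against 11.58 and 12.11 and was not called. The median of the list against wild type b was -0.24 in *FLO8* overexpressed and 0.49 in labelled *flo8*. With 1 array left out, 1 to 7 genes were lower and none was higher.

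**Figure D4:**
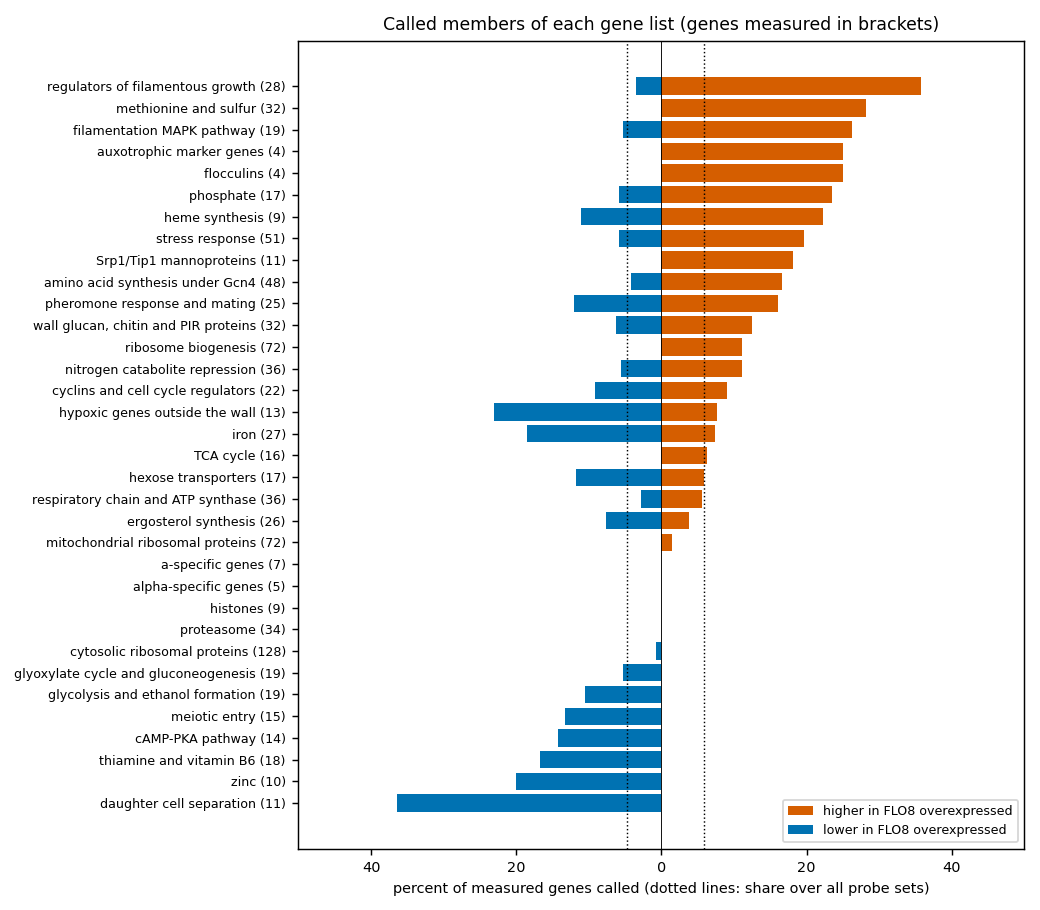
Percent of the measured genes of each list that were called higher (right) or lower (left) in *FLO8* overexpressed than in labelled *flo8*; brackets give the genes measured and dotted lines the shares over all probe sets, 5.84% and 4.75%. Regulators of filamentous growth reach furthest right, 10 of 28, and daughter cell separation furthest left, 4 of 11. The lists were chosen with earlier results of these data known.

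Transport and nutrient genes held single large differences. *HXT2*, a high affinity glucose transporter, was 13.05 and 12.88 in *FLO8* overexpressed, against 11.14 and 10.76 in labelled *flo8*, and 13.24 and 13.18 in wild type b (2.01, adjusted p = 0.00918, up to 0.0676 with 1 array left out). The transporters *HXT1* and *HXT3*, which work at high glucose, were lower by small amounts, with log2 differences of -0.38 and -0.27 (adjusted p = 0.0225 and 0.025), and 14 of 17 hexose transporter and sensor genes were not called, the 1 higher and 2 lower genes standing against 5.84% and 4.75% of all probe sets. *PTR2*, the peptide transporter, was 11.58 and 11.78 against 13.16 and 13.62 (-1.71, adjusted p = 0.0187, up to 0.0997). Among 36 genes of nitrogen catabolite repression, 4 were higher and 2 lower, against the same shares. The higher ones included *CAR2* and the activator gene *GAT1* (1.07, adjusted p = 0.0259), and the lower ones were *PTR2* and the ammonium permease gene *MEP1* (-0.75, adjusted p = 0.0259).

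Iron genes also split. *ISU2*, a scaffold on which iron-sulfur clusters are built, was 13.51 and 13.55 in *FLO8* overexpressed, against 11.32 and 11.28 in labelled *flo8*, and 13.66 and 13.60 in wild type b (2.23, standard error 0.04, adjusted p = 0.000421, up to 0.0185 with 1 array left out). The groups were far apart and each pair of replicates lay close together. *ARN1*, a siderophore transporter, was higher by 1.20 (adjusted p = 0.0434, up to 0.182). The low affinity iron transporter gene *FET4* (-1.79, adjusted p = 0.0186, up to 0.0691) and the siderophore transporter gene *SIT1* (-1.45, adjusted p = 0.0387, up to 0.153) were lower, and in all 2 of 27 iron genes were higher and 5 lower, against 5.84% and 4.75% of all probe sets. *PHO84*, the high affinity phosphate transporter, was 4.44 and 4.13 against 2.00 and 1.93, with the labelled *flo8* arrays at background (2.32, a lower limit, adjusted p = 0.00491, up to 0.0328).

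Of 32 genes of methionine and sulfur metabolism, 9 were higher in *FLO8* overexpressed and none was lower, against 5.84% and 4.75% of all probe sets, with a median of 0.03. *SAM3*, which takes up S-adenosylmethionine, was 13.03 and 12.85 against 11.82 and 11.75 (1.16, adjusted p = 0.00688, up to 0.0377 with 1 array left out). The cofactor gene *MET28* (0.70, adjusted p = 0.0239) and *MET8* (0.53, adjusted p = 0.0313) followed with smaller differences, and the count of higher genes was 1 to 6 with 1 array left out. Of 72 genes of ribosome biogenesis, 8 were higher and none was lower, a share of 11.1% called that lies near the 10.6% over all probe sets, with log2 differences of those called from 0.21 to 0.36 and a median of 0.20 over the list. This list was the most dependent on single arrays, with 0 to 25 genes higher when 1 array was left out and 0 without labelled *flo8* replicate 2.

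The remaining lists are given as counts, to be read against the 5.84% higher and 4.75% lower of all probe sets. Of the wall glucan, chitin and PIR protein genes, 4 of 32 were higher and 2 lower, and of the phosphate genes 4 of 17 were higher and 1 lower. In central metabolism the shares called lay near or below the 10.6% over all probe sets, with 0 higher and 2 lower of 19 in glycolysis, 0 and 1 of 19 in the glyoxylate cycle and gluconeogenesis, 1 and 0 of 16 in the TCA cycle and 2 and 1 of 36 in the respiratory chain. In the same order, the counts were 2 and 1 of 9 in heme synthesis, 1 and 2 of 26 in ergosterol synthesis, 0 and 2 of 10 for zinc, 0 and 3 of 18 for thiamine and vitamin B6, and 2 and 2 of 22 for cyclins and cell cycle regulators. Of 128 cytosolic ribosomal protein genes 1 was lower (*RPS22B*, -0.39), of 72 mitochondrial ones 1 was higher (*MRPL51*, 0.21), and none of 34 proteasome or 9 histone genes was called. Of 25 genes of pheromone response and mating, 4 were higher and 3 lower. The lower ones included *PRM4*, at 6.54 and 6.86 in *FLO8* overexpressed, against 8.81 and 8.85 in labelled *flo8*, and 7.06 and 6.85 in wild type b (-2.13, adjusted p = 0.00688, up to 0.038 with 1 array left out). Among hypoxic genes outside the wall, *AAC3*, an ADP/ATP carrier of anaerobic cells, was higher by 1.34 (adjusted p = 0.0183, up to 0.0907) and *OLE1*, the fatty acid desaturase, lower, with a log2 difference of -0.29 (adjusted p = 0.0118, up to 0.0752).

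Wild type b lay nearer to *FLO8* overexpressed for 237 of the 321 higher and 186 of the 261 lower probe sets. Among those that differed at least 2-fold, it lay nearer to *FLO8* overexpressed for 34 of 58 higher and 45 of 51 lower. In the same fit no probe set was called between *FLO8* overexpressed and wild type b, with 847 at an unadjusted p under 0.05 and 5 called when each condition was given its own variance, and 148 were called between labelled *flo8* and wild type b (2.69%), 59 higher (1.07%) and 89 lower (1.62%). These comparisons share arrays with the one above, and are given as values only.

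The other set of Σ1278b arrays, which shares no array with these, offers the same contrast for Mss11. Fitted the same way, *MSS11* overexpressed against *mss11* deleted gave 579 called probe sets (10.5%), 180 higher (3.27%) and 399 lower (7.26%). Of the probe sets called here, 117 were called there in the same direction, 43 higher and 74 lower. These are 20.1% of the *FLO8* calls and 20.2% of the *MSS11* calls. Another 13 were called in opposite directions. The difference between both contrasts, an addition made after seeing the data, was fitted over the 12 arrays and called for 1305 probe sets (23.7%), with the *FLO8* contrast the higher one for 907 (16.5%) and the lower one for 398 (7.24%), among them 40 of the 117. Levels of the 2 sets were not compared, as their values may have been normalized separately.

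All 24 named genes had the same sign in the *MSS11* contrast, *SPS4* with only -0.12. The share of all probe sets with the same sign was not counted. Of the 24, 6 of the 12 higher and 6 of the 12 lower were called there, against 3.27% and 7.26% of all probe sets. These genes were named for large differences in the *FLO8* contrast. *FLO11* had 8.94 in the *FLO8* contrast and 8.17 in the *MSS11* contrast (difference 0.77, adjusted p = 0.41), and *HMS1* had at least 6.57 and 5.59, the first being a lower limit, so that their difference was not read. *TIR3* had 4.69 and 6.03, *AQY2* -4.89 and -4.09, and *IME1* -2.39 and -2.11, and for none of them was the difference between contrasts called (adjusted p = 0.26, 0.481 and 0.266). Differences between the contrasts were called for *CAR2* (5.13 and 1.35, adjusted p = 0.0165), *OAC1* (2.85 and 0.59, adjusted p = 0.00333), *HSP30* (-5.41 and -2.33, adjusted p = 0.0478) and *SPS4* (-3.67 and -0.12, adjusted p = 0.00244). The *FLO8* and *MSS11* contrasts also parted at branched-chain genes, a set chosen after its values were seen. *LEU1* had 2.00 and 0.48, *BAT1* 1.42 and 0.15, and *LEU9* 0.76 and -0.73 (adjusted p of the difference 0.00016, 3.52e-05 and 0.0156). *LEU2* itself had 0.48 and -1.045 (adjusted p of the difference 0.00322). The strain list gives *LEU2* as the marker of both the *flo8* and the *mss11* deletion, and its part in these differences was not tested. *HMS2* had 0.96 here and -2.44 in the *MSS11* contrast, and *MET13* had 0.42 and -1.25, both called in opposite directions (adjusted p of the difference 0.00722 and 0.00417).

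**Figure D5:**
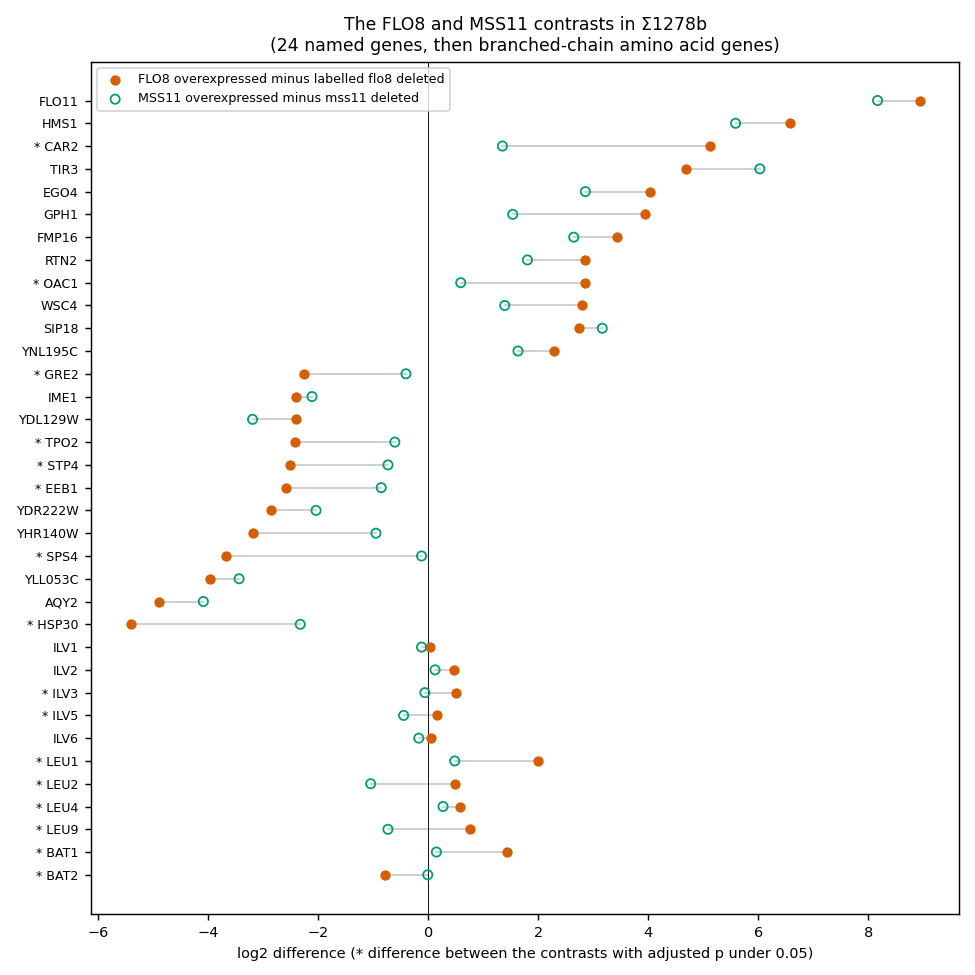
Log2 differences (horizontal axis) in the *FLO8* contrast (filled) and the *MSS11* contrast (open) for the 24 named genes and then the branched-chain amino acid genes; an asterisk marks genes where the difference between the contrasts had an adjusted p under 0.05. The 24 named genes, chosen for large differences in the *FLO8* contrast, have the same sign in both, though *SPS4* lies at only -0.12 in the *MSS11* contrast. The share of all probe sets with the same sign was not counted. *FLO11* lies at 8.94 and 8.17.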

How the data were processed

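The series holds 16 Yeast Genome 2.0 arrays from 8 conditions. The authors background-corrected and normalized the arrays, by RMA per the methods and GCRMA per the submitters' notes, and deposited one intensity on a linear scale per probe set and array. Here log2 of each value was used, after a floor of 1 that no value fell under. Of 10928 probe sets, 5498 matched 5449 *S. cerevisiae* genes through the platform and RefSeq tables and were tested. A further 1747 were named for another organism, 3517 had no gene and 166 were controls. Where a gene had several probe sets, lists used the one with the highest mean level. The fit used limma 3.58.1 in R 4.3.3 with one mean per condition over 6 arrays. Its variances were moderated (lmFit and eBayes, residual df 3, prior df 1.35), and p-values were adjusted by Benjamini-Hochberg across every probe set tested, with 0.05 as the threshold. It was run on simulated data with independent noise of equal spread in the groups, which does not test the calls made here. P-values rest on the spread between the 2 cultures of each group, pooled over the 3 groups of the fit, wild type b among them. Array number limits the precision. Named are *FLO8*, *MSS11* and the flocculins, the 12 called genes furthest in each direction whose arrays do not overlap and whose higher group has a mean log2 level of at least 6, and up to 4 called members of each list described, with members that did not pass. *POX1*, *SPG4*, the branched-chain set and called list members beyond the first 4, such as *HSP82*, were chosen after their values were seen. The 35 lists and the members were chosen with earlier results of these data known; the plasmid genes of the 2-micron list were not measured. Alternatives were other arrays in the fit, normalization, filters, moderation, a replicate block and each array left out.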

Additional observations from a re-analysis of the deposited data

How the results depend on the processing

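The count of called probe sets, 582 (321 higher and 261 lower), depended on how the spread was estimated. It was 44 (22 higher, 22 lower) with all 16 arrays in the fit, 281 (145, 136) with 14 arrays, without S288c *MSS11* overexpressed, 99 (54, 45) with only the 4 arrays, 336 (181, 155) with a variance for each condition, 154 (83, 71) with no organism filter and 109 (58, 51) with a log2 difference of at least 1 required. The fit with no organism filter tests more probe sets and the last setting asks for more, and the cause of the other differences was not tested. With 1 array left out, the count ranged from 61 to 908, the higher ones from 37 to 504 and the lower ones from 24 to 404. Without chromosome I, chosen after seeing the data, it was 609, and without chromosome I and labelled *flo8* replicate 2 it was 157 (86, 71). Quantile normalization (539), median centring (581), a filter on dim probe sets (658), an intensity trend (599) and robust moderation (548) left it within 1.5 times. The replicate block gave 567 calls (318, 249). Replicate differences correlated by 0.163 between *FLO8* overexpressed and labelled *flo8* and by 0.148 and 0.263 with wild type b, and nothing in the labels pairs the cultures.

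The median over all probe sets ranged from -0.0129 to 0.0133 over all alternatives. Of the 106 genes followed, *FLO1*, at background, changed sign without labelled *flo8* replicate 2 (0.00, with -0.04 to 0.00 over the arrays left out). *URA3* changed sign without *FLO8* overexpressed replicate 2 (0.20), and was -2.13 without replicate 1. Each of these fits leaves a group with 1 array, so that the spread of that group is not measured. The other 104 kept their direction under each alternative that gave them a value, which leaves out *PHO84* in the filter on dim probe sets and *FLO9* without chromosome I. With all 16 arrays in the fit, 81 lost their call, and with a variance for each condition 25 did.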
